A study of Mus musculus with 7 samples.

Results

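The 10 genes described here encode the subunits of the transcription factor NF-kappa B and its inhibitors in mouse bone marrow-derived dendritic cells (BMDCs). They were chosen by symbol. They comprised the canonical subunits Nfkb1, Rel and Rela, the alternative subunits Nfkb2 and Relb, the classical inhibitors Nfkbia, Nfkbib and Nfkbie, and the nuclear I-kappa B genes Nfkbiz and Bcl3. All 10 were found among the 28666 genes of the deposited table, and all 10 were among the 17461 genes kept by the filter on low counts. BMDCs were grown from bone marrow of female C57BL/6 mice aged 6 to 8 weeks with GM-CSF and IL-4 over 7 days, and were then co-cultured across a Transwell membrane with MC38 cells, a mouse colon adenocarcinoma line. After 24 h of DON, a glutamine antagonist, cells were sorted by flow cytometry, and RNA of the immature fraction (3 libraries) and of the mature fraction (4 libraries) was sequenced. The study's results text gives DON for the sorted cells, whereas a figure legend names DMSO or DON at 5 μM. The sample labels name neither, so a treatment cannot be assigned to single libraries. In its co-cultures the study set DON with added glutamine against DMSO with a lower glutamine level, so drug and glutamine level went together. Elsewhere the study defined mature DCs by CD80 and CD86 in its flow cytometry, but the sources used here do not say which markers were used in this sort. The study states in general that its data come from independent biological experiments, but no source used here ties a library to a mouse or culture, so p values measure only the spread between these libraries.

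NF-kappa B proteins act as dimers. In the canonical arm, signals from Toll-like and cytokine receptors lead to the phosphorylation and loss of I-kappa B proteins, which frees dimers of p50 (from Nfkb1) with RelA or c-Rel to enter the nucleus. In the alternative arm, a few receptors such as CD40 stabilise the kinase NIK, p100 (from Nfkb2) is processed to p52, and p52 acts with RelB, a subunit long tied to the maturation of dendritic cells. Several subunit and inhibitor genes are themselves NF-kappa B targets, and the induced inhibitors form feedback loops. These steps are mostly changes in protein, and RNA levels do not show which dimers were in the nucleus.

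Several members are known as targets of the factor they form or restrain. The bases around the starts of their genes were therefore read for the kappa B consensus. It is GGG, a purine, 2 of any base, 2 pyrimidines and CC on either strand. RefSeq promoter windows of build GRCm38.p6, from 250 bases before to 50 after a gene start, were at hand for 7 of the 10 members, in 9 windows. A match was found for 5 of the 7, namely Rel, Nfkb2, Nfkbia, Nfkbie and Bcl3, whereas 8.46% of all 32851 windows held one, as did 9.55% of the 27025 genes in any of their windows. The windows of Rela and Nfkbib held no match of these letters, and the windows of Nfkb1, Relb and Nfkbiz were not analysed here. Stretches of 150 bases upstream of the annotated exons of Nfkbia (chr12:55492648-55492797), Nfkbie (chr17:45555550-45555699) and Rel (chr11:23770971-23771120) are shown because 2 classical inhibitors and a canonical subunit hold a match there. The stretch of Nfkbie ends a few bases before its annotated gene start at 45555703. Each sequence is written on the strand of its gene with the match in capitals.
Nfkbia, upstream of the exons, minus strand: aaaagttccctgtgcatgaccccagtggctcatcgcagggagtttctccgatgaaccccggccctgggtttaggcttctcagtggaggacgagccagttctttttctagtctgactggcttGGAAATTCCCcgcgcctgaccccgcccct
Nfkbie, upstream of the exons, plus strand: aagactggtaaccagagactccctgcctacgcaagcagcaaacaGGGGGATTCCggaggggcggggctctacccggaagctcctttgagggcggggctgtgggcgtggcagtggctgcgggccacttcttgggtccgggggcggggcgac
Rel, upstream of the exons, minus strand: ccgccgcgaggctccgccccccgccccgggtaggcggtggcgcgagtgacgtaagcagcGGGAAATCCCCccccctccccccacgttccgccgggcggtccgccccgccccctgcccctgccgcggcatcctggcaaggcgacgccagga
Counted to the RefSeq start, the first base of the match lay 29 bases before it in Nfkbia, 106 in Nfkbie and 92 in Rel, whose RefSeq start leaves 1 base between it and the stretch shown. In Rel, 2 overlapping matches make up the capitals. Nfkb2, the precursor gene of the alternative arm, held matches at 4 places in 2 windows, and Bcl3 at 1 place, which reads as a match on both strands. For these, 30 bases around each match are shown, at chr19:46304689-46304718, chr19:46304716-46304745, chr19:46305449-46305478 and chr19:46305695-46305724 for Nfkb2 and at chr7:19822734-19822763 for Bcl3. All 4 places of Nfkb2 lie past its annotated gene start at 46304320. All but that at chr19:46305449-46305478 lie in annotated exons, as does that of Bcl3. Bases after a start are counted with the start base as 1.
Nfkb2, 39 bases before a start, 2 overlapping matches: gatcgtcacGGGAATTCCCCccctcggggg
Nfkb2, 11 bases before the same start: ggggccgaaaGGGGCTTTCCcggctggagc
Nfkb2, 236 bases before another start: tccgacggcaGGAATGTCCCcacaaaagcc
Nfkb2, 11 bases after that start: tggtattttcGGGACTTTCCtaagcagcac
Bcl3, 3 bases after the start: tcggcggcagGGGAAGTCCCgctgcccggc
A match describes these letters and is neither a measured binding site nor an account of the changes below. By the criteria below, all 5 members with a match were higher in mature cells, as were 8 of all 10 members. Of the 2 members with a window but no match, Nfkbib was higher and Rela did not pass. A link between a match and the size of change was not tested.

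The authors deposited whole-number counts and FPKM values for each gene and library. Total counts ranged from 54846746 to 67973086 per library, and each member had between 546 and 42539 counts in each library. Values are given below as CPM, the counts relative to the TMM-scaled size of each library, which compares libraries but not genes of different length. The test between mature and immature cells was the quasi-likelihood test of edgeR over all 17461 genes, and a gene was called when its absolute log2 fold change was at least 1 and its Benjamini-Hochberg adjusted p was under 0.05. Dendritic cell identity was checked first. Of 8 dendritic cell markers tested, 2 were called higher and none lower, namely Zbtb46, a transcription factor of conventional dendritic cells, with 24.3 to 26.96 CPM in immature and 98.0 to 109 CPM in mature libraries, and the cytokine receptor Flt3, with 0.310 to 0.647 and 4.83 to 7.34 CPM. The MHC class II genes H2-Aa and H2-Eb1, the invariant chain Cd74 and the MHC class II regulator Ciita were also higher in every mature library than in any immature one, without being called. Itgax, which encodes CD11c, was at 1288 to 1464 CPM in immature and 874 to 1144 CPM in mature libraries (log2 fold change -0.41, edgeR adjusted p = 0.0124, under the fold criterion), and Cd80 and Cd86, costimulatory markers of maturation, rose 5.60-fold and 10.3-fold, which is no independent check if the sort used them. All 9 macrophage markers tested fell, from a sum of 2143 to 2230 CPM down to 369 to 430 CPM. All 11 cardiac muscle markers were called higher, from a sum of 5.06 to 5.86 CPM in immature libraries to at least 773 CPM in mature replicates 2 to 4. In mature replicate 1 the sum was 27.9 CPM, of which Tnni3 alone made up 23.98 CPM, and each of the others was below 1 CPM. T cell, B cell and neutrophil markers summed to at most 3.16 CPM in any library. Among further lists, 1 of 3 NK cell, 1 of 5 epithelial, 2 of 3 erythroid and 3 of 5 fibroblast markers tested were called higher. The part of these shifts in the results on NF-kappa B genes was not tested, and in bulk RNA a change in the share of a cell type and a change in RNA per cell cannot be told apart. Mature replicate 3 also stood apart. Its counts differed from those of the other mature libraries by a median chi-square per gene of 17.7 to 25.6, against 4.26 to 5.26 among the other mature libraries, and the values of members that differ in it are given below.

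Of the 10 members, 9 were called, 8 of them higher and 1 (Nfkbiz) lower in mature cells. Among all tested genes 23.1% were called, 13.2% as higher and 9.95% as lower. The median log2 fold change was 1.65 over the 10 members and 0.055 over all tested genes. By adjusted p alone all 10 members passed, where 46.1% of all genes did. For 9 members the 2 groups of libraries did not overlap, all higher in mature cells, where 25.4% of all genes did not overlap in that direction. By size of change the order was Relb, Nfkb2, Rel, Nfkbie, Nfkb1, Nfkbib, Nfkbia, Bcl3, Rela and Nfkbiz, the only member with a negative value, and Nfkbie, Nfkb1 and Nfkbib lay within their standard errors of each other.

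**Figure D1:**
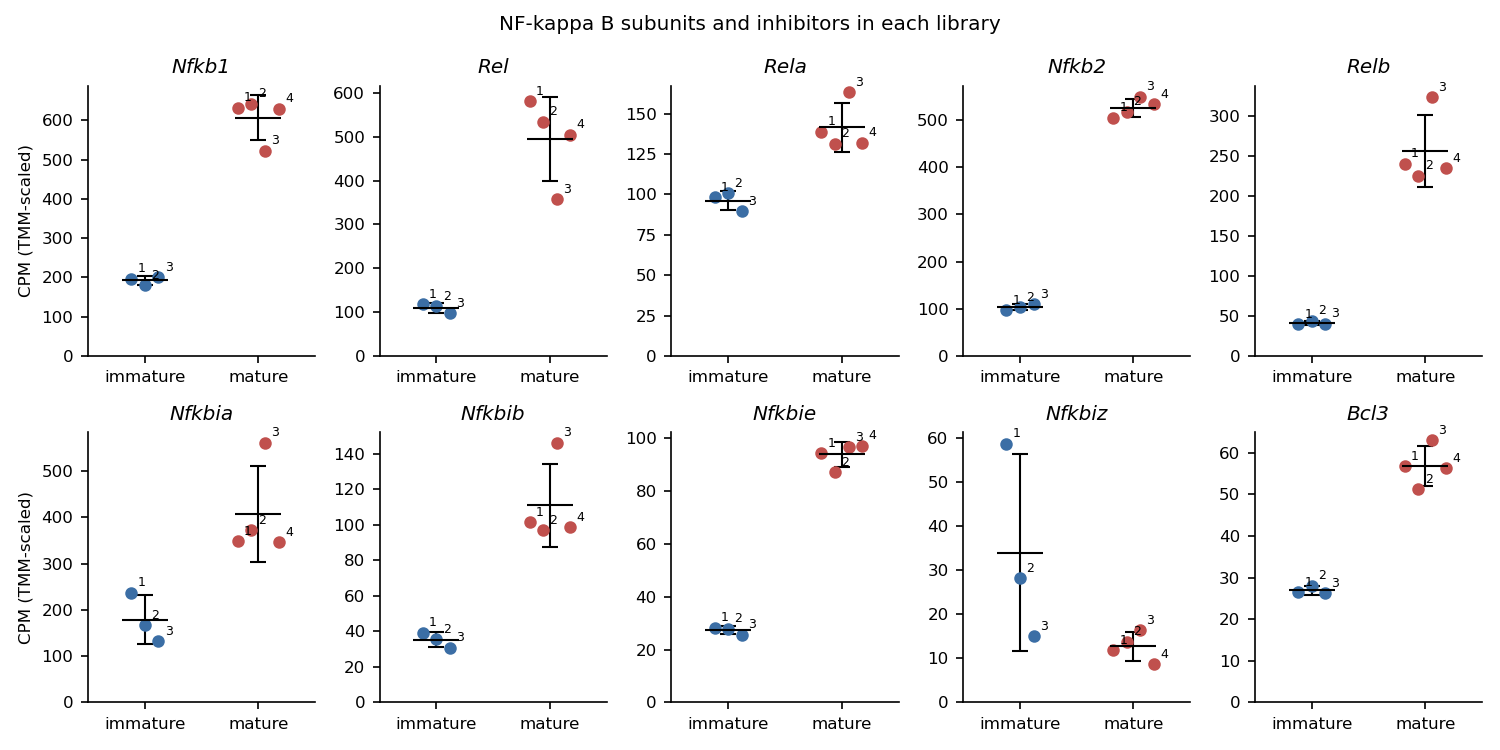
CPM of each member in each library (y axis, linear from 0), with immature libraries in blue and mature libraries in red, each point marked by its replicate number. Horizontal bars are group means and error bars are SD (n = 3 immature, n = 4 mature). The groups are apart in 9 panels and overlap for Nfkbiz, and mature replicate 3 is the lowest mature library for Nfkb1 and Rel and the highest for Relb, Nfkbia and Nfkbib.

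Of the canonical subunits, Nfkb1 and Rel were called higher and Rela was not. Nfkb1 (ENSMUSG00000028163, chr3:135584655-135691546), which encodes p105, the precursor of p50, had 197, 180 and 201 CPM in immature replicates 1 to 3 and 632, 643, 523 and 630 CPM in mature replicates 1 to 4. Every mature library was far above every immature one, and mature replicate 3 was lowest among the mature. On average it rose from 193 ± 11.03 (SD, n = 3) to 607 ± 56.5 CPM (SD, n = 4), or 1.65 on the log2 scale (SE 0.10, adjusted p = 3.25e-06 by edgeR).

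Rel (ENSMUSG00000020275, chr11:23736847-23770970), which encodes c-Rel, a subunit found mainly in blood cells and needed in dendritic cells for full Il12b and Il23a expression, had 119, 114 and 97.6 CPM in the immature and 581, 534, 358 and 505 CPM in the mature libraries. It rose in all mature libraries, again least in replicate 3. The mean went from 110 ± 11.1 (SD, n = 3) to 495 ± 96.6 CPM (SD, n = 4), or 2.17 on the log2 scale (SE 0.17, adjusted p = 1.5e-05 by edgeR), the largest of the canonical subunits.

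Rela (ENSMUSG00000024927, chr19:5637483-5648130), which encodes the p65 subunit present in most cell types, had 98.1, 101 and 89.4 CPM in the immature and 139, 131, 163 and 132 CPM in the mature libraries. The groups did not overlap, but the difference was small. The means were 96.1 ± 5.98 (SD, n = 3) and 141 ± 15.0 CPM (SD, n = 4), or 0.56 on the log2 scale (SE 0.10, adjusted p = 0.00192 by edgeR), and Rela was the only member that did not reach the fold criterion.

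Both alternative subunits rose, and their log2 fold changes were the 2 largest of the members, though those of Nfkb2 and Rel lay within their standard errors of each other. Nfkb2 (ENSMUSG00000025225, chr19:46304320-46312385), which encodes p100, the precursor of p52, had 97.5, 104 and 110 CPM in the immature and 505, 518, 549 and 533 CPM in the mature libraries. Its mature libraries lay close together, replicate 3 included. Its mean CPM went from 104 ± 6.23 (SD, n = 3) to 526 ± 19.2 CPM (SD, n = 4), or 2.34 on the log2 scale (SE 0.083, adjusted p = 3.04e-07 by edgeR).

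Nfkb2 overlaps Psd and 4833438C02Rik on the other strand, which had 12955 counts in all libraries against 148545 of Nfkb2. The library kit marks strand, but the strand setting of the counting is not given in the sources used here, so reads in the shared stretch are uncertain. The genes that overlap Nfkb1, Nfkbib and Bcl3 had at most 235 counts in all.

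Relb (ENSMUSG00000002983, chr7:19606217-19629438), which encodes the partner of p52, had 39.7, 44.3 and 40.5 CPM in the immature and 241, 226, 324 and 235 CPM in the mature libraries. Here mature replicate 3 was the highest. The mean rose from 41.5 ± 2.46 (SD, n = 3) to 257 ± 45.4 CPM (SD, n = 4), or 2.63 on the log2 scale (SE 0.14, adjusted p = 1.84e-06 by edgeR), the largest of the 10 members.

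All 3 classical inhibitors, which hold canonical dimers in the cytoplasm, rose. Nfkbia (ENSMUSG00000021025, chr12:55489410-55492647), which encodes I-kappa B alpha, the fastest of the feedback inhibitors, had 237, 167 and 133 CPM in the immature and 348, 372, 561 and 347 CPM in the mature libraries. It varied more within each group than the other 2 inhibitors, with immature replicate 1 and mature replicate 3 high. On average it rose from 179 ± 53.0 (SD, n = 3) to 407 ± 103 CPM (SD, n = 4), or 1.19 on the log2 scale (SE 0.24, adjusted p = 0.00349 by edgeR).

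Nfkbib (ENSMUSG00000030595, chr7:28758251-28766640), which encodes I-kappa B beta, had 39.3, 35.6 and 30.9 CPM in the immature and 101, 97.1, 146 and 98.7 CPM in the mature libraries, with replicate 3 highest. Its mean CPM went from 35.3 ± 4.21 (SD, n = 3) to 111 ± 23.6 CPM (SD, n = 4), or 1.65 on the log2 scale (SE 0.17, adjusted p = 6.74e-05 by edgeR). Nfkbie (ENSMUSG00000023947, chr17:45555703-45563169), which encodes I-kappa B epsilon, a later feedback inhibitor that also binds c-Rel, had 28.3, 27.9 and 25.7 CPM in the immature and 94.4, 87.1, 96.7 and 97.2 CPM in the mature libraries. It was among the least variable members, and mature replicate 3 did not stand out for it. The mean rose from 27.3 ± 1.42 (SD, n = 3) to 93.9 ± 4.68 CPM (SD, n = 4), or 1.78 on the log2 scale (SE 0.084, adjusted p = 8.8e-07 by edgeR).

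The nuclear I-kappa B genes moved in opposite directions. Bcl3 (ENSMUSG00000053175, chr7:19808462-19822770), whose protein binds p50 and p52 homodimers and can raise or lower transcription, had 26.4, 28.1 and 26.2 CPM in the immature and 56.7, 51.3, 63.02 and 56.3 CPM in the mature libraries. On average it rose from 26.9 ± 0.993 (SD, n = 3) to 56.9 ± 4.79 CPM (SD, n = 4), or 1.08 on the log2 scale (SE 0.094, adjusted p = 2.49e-05 by edgeR), just past the fold criterion.

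Nfkbiz (ENSMUSG00000035356, chr16:55811375-55838899), whose product I-kappa B zeta is induced quickly by Toll-like receptor signals and helps switch on secondary response genes, had 58.8, 28.2 and 15.1 CPM in immature replicates 1 to 3 and 11.9, 13.8, 16.4 and 8.73 CPM in mature replicates 1 to 4. It was the only member whose groups overlapped, since mature replicate 3 lay above immature replicate 3. The mean fell from 34.0 ± 22.4 (SD, n = 3) to 12.7 ± 3.25 CPM (SD, n = 4), or -1.42 on the log2 scale (SE 0.41, adjusted p = 0.0195 by edgeR). Without immature replicate 1 the log2 fold change was -0.78 (edgeR adjusted p = 0.0827) and without mature replicate 4 it was -1.27 (edgeR adjusted p = 0.0509), and neither passed. The fall of Nfkbiz therefore rests on single libraries, which is not so for the other 8 called members.

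**Figure D2:**
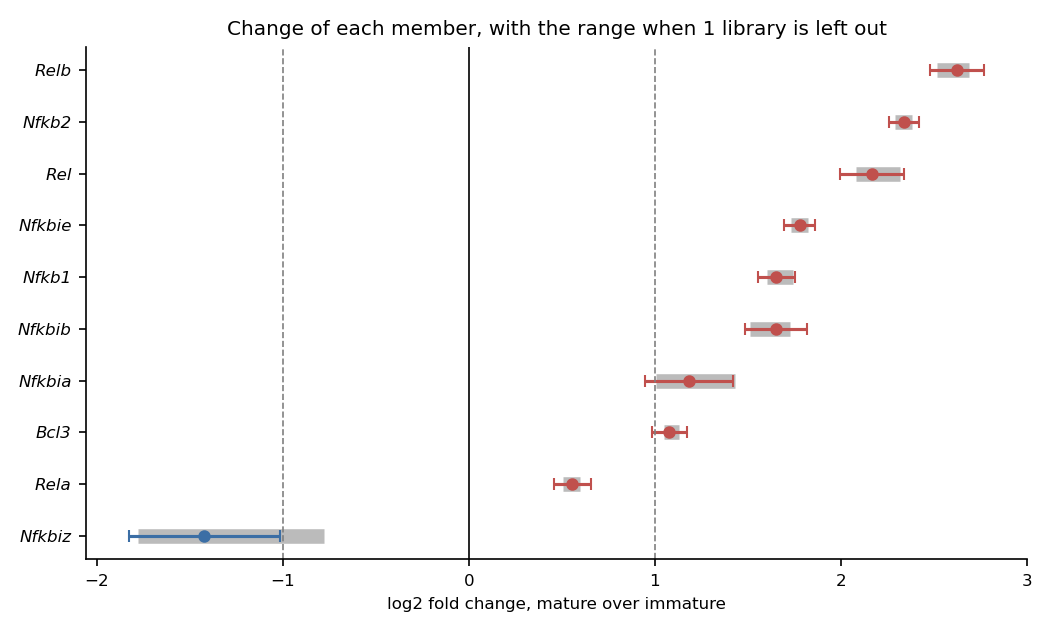
Log2 fold change of mature over immature cells for each member (points, x axis) with its standard error (bars) from edgeR, in order of size. Grey bands span the values obtained when each of the 7 libraries was left out in turn, and dashed lines mark the fold criterion at -1 and 1. The band of Nfkbiz crosses the criterion, from -1.78 to -0.78, whereas the bands of the other called members stay past it.

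Whether members of matching role changed unequally was tested on the log2 ratio of their counts within each library, which needs no scaling between libraries, by a two-sided exact permutation test. With 3 against 4 libraries there are 35 labelings and the smallest p is 0.0571, so no ratio could reach 0.05, and p values were adjusted over the 6 ratios tested. The log2 ratio of Relb to Rela was -1.31, -1.19 and -1.14 in immature replicates 1 to 3 and 0.79, 0.78, 0.99 and 0.83 in mature replicates 1 to 4. Relb counts were thus below those of Rela in every immature library and above them in every mature one. The ratio rose 4.17-fold (a log2 difference of 2.06, exact permutation p = 0.0571, adjusted 0.0686). The log2 ratio of Rel to Rela was 0.28, 0.18 and 0.13 in the immature libraries and 2.07, 2.02, 1.13 and 1.93 in the mature ones, with replicate 3 lowest, a difference of 1.60. The log2 ratio of Nfkb2 to Nfkb1, the precursor genes of the alternative and canonical arms, was -1.01, -0.79 and -0.87 in the immature libraries and -0.32, -0.31, 0.072 and -0.24 in the mature ones, a difference of 0.69. For Nfkb2 over Relb the difference was -0.27 and for Nfkbia over Nfkbib -0.44. In these 5 ratios the groups did not overlap and each had the exact permutation p of 0.0571 (adjusted 0.0686), the smallest the design allows. Nfkbie over Nfkbia, with a difference of 0.58, was the ratio whose groups overlapped (exact permutation p = 0.114, adjusted 0.114).

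Levels of different genes can be compared only per length, and here the length matters. The gene lengths implied by the deposited counts and FPKM were 1.09 times the summed length of all annotated exons of each member, overlapping parts counted once. For Nfkb1 this exon union is 12061 bases, 2.93 times its longest protein-coding transcript of 4117 bases in GENCODE M21, and for Relb it is 1.76 times (3885 against 2209 bases). For Rel they are the same, 7466 bases, and for the other members the union is 1.02 to 1.34 times the transcript. The deposited FPKM of Nfkb1 and Relb are thus low beside the other members if the coding transcript is the RNA that was sequenced, so levels were also computed as CPM per kilobase of the longest coding transcript, a scale chosen after seeing the data.

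In FPKM, Nfkbia had the highest level of the members in both groups, with 98.0 ± 30.2 (SD, n = 3) in immature and 237 ± 48.0 (SD, n = 4) in mature cells. In immature cells Rela (27.5 FPKM) and Nfkb2 (19.9) followed, each apart from its neighbours in every library. The next 3, Nfkbib (14.3), Nfkb1 (14.0) and Rel (13.0), overlapped their neighbours among these 3, as did Bcl3 (9.55) with Relb (9.39) and Nfkbie (7.88) with Nfkbiz (6.00). In mature cells Nfkb2 (109 FPKM) came second, and Rel (63.1), Relb (62.1), Nfkbib (48.0), Nfkb1 (47.8) and Rela (43.4) formed a run in which each overlapped the next. Nfkbie (29.1), Bcl3 (21.7) and Nfkbiz (2.39) stood below, each apart from its neighbours.

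Per kilobase of coding transcript, Nfkbia again led in both groups, with 113 and 258 CPM per kilobase. Nfkb1 then moved to the second place in both, with 46.8 CPM per kilobase in immature cells, where it lay above Rela (35.4), Nfkb2 (27.0), Relb (18.8) and Rel (14.7), and 147 in mature cells, where its libraries overlapped those of Nfkb2 (137). Relb (116) lay above Rel (66.2), and Rela (52.1) had the lowest mean of the 5 subunits, with 48.4 to 60.2 CPM per kilobase against 47.9 to 77.9 of Rel, so that these ranges overlapped. So the place of Nfkb1 among the subunits depends on the length used, whereas on both scales Nfkbia led and Rela had the lowest mean of the subunits in mature cells but not in immature cells. In mature replicate 3 Rela was not the lowest subunit, since its FPKM of 46.98 lay above the 38.3 of Nfkb1 and the 42.3 of Rel, and per kilobase it lay above Rel.

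As shares of the summed FPKM of the 5 subunits, Rela had 33.4%, 33.8% and 31.2% in immature replicates 1 to 3 and 13.0%, 12.6%, 15.3% and 12.7% in mature replicates 1 to 4. Its share went from 32.8% ± 1.40 (SD, n = 3) to 13.4% ± 1.28 (SD, n = 4), although its own level did not fall. Nfkb2 and Relb together had 32.9%, 35.1% and 36.9% in the immature libraries and 49.5%, 50.5%, 58.5% and 52.1% in the mature ones, on average 34.96% ± 2.00 (SD, n = 3) and 52.6% ± 4.02 (SD, n = 4). Per kilobase of coding transcript the same shares were 24.8% ± 1.40 and 10.04% ± 0.968 for Rela and 32.1% ± 1.58 and 48.7% ± 4.37 for Nfkb2 with Relb (SD, n = 3 and n = 4). The groups did not overlap for either share on either scale. The summed FPKM of the 5 subunits itself was 79.8 to 86.9 in immature and 307 to 335 in mature libraries. The summed FPKM of the 3 classical inhibitors was 1.83, 1.33 and 1.13 times that of the subunits in the immature libraries and 0.846, 0.898, 1.29 and 0.862 times in the mature ones. These groups overlapped through mature replicate 3. These shares are a description and were not tested.

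**Figure D3:**
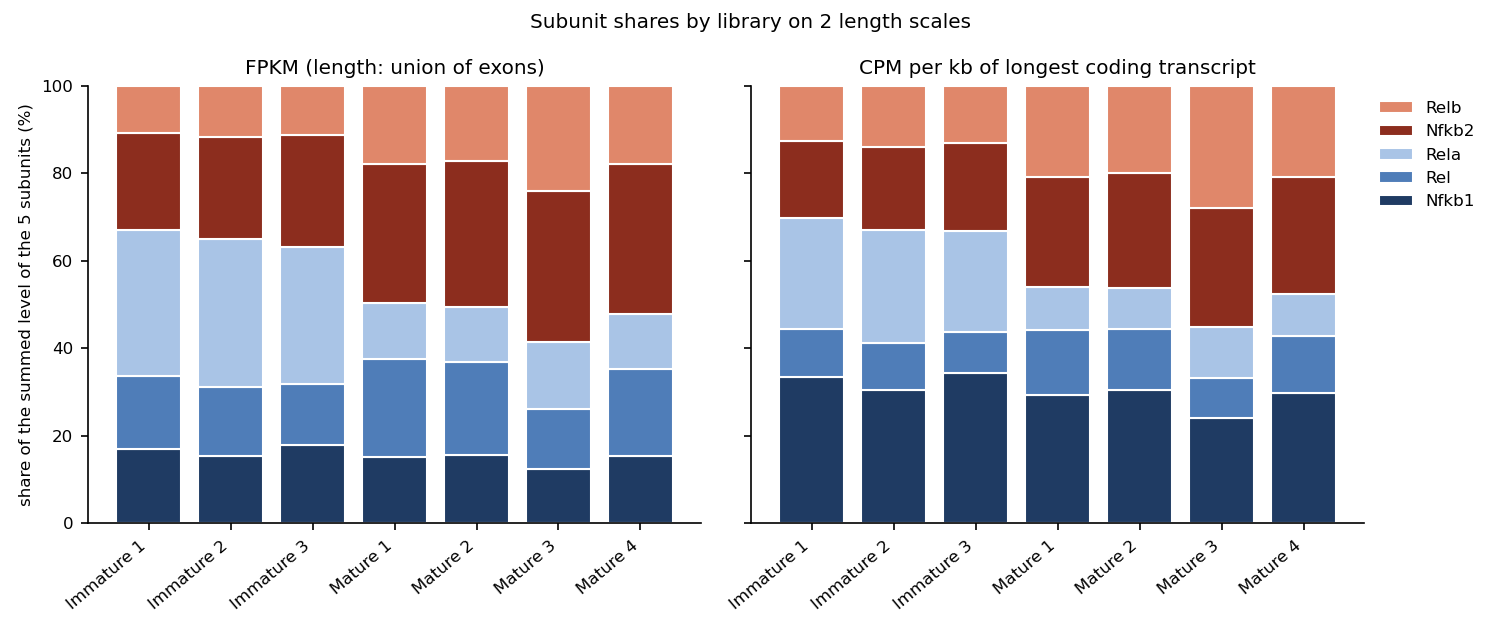
Share of each of the 5 subunits in their summed level (y axis, percent) in each library, by FPKM (left) and by CPM per kilobase of the longest coding transcript (right). Canonical subunits are in blue and alternative subunits in red. In both panels Rela takes a smaller and Nfkb2 with Relb a larger part of each mature bar than of each immature bar, and Nfkb1 takes about 17% of the immature bars on the left and 33% on the right.

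The other genes of the pathway were read from lists of receptors, adaptors, kinases, inhibitors and targets. Of 103 such genes tested, 29 were called higher, 11 lower and 63 neither. Among all tested genes 13.2% were called higher and 9.95% lower, and the counts of each list below stand beside these shares. Against a median log2 fold change of 1.65 over the members, 4 of these 6 lists had one between -0.34 and 0.074. The other 2 lists were higher, with 0.70 for textbook targets and 1.69 for the 5 alternative-arm targets tested. The latter median rests on genes at very low levels, given below.

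Among 13 receptors tested, 3 were called higher and 5 lower (median -0.34). The 3 that rose were Cd40, which signals through both arms, with 4.07 to 5.28 CPM in immature and 26.4 to 42.0 CPM in mature libraries (log2 fold change 2.74, SE 0.20, adjusted p = 9.96e-06 by edgeR), Il18r1, the receptor of IL-18 (2.34), and Tnfrsf11a, which encodes RANK, another receptor of the alternative arm (1.99). The falls were those of Tlr4, the receptor of bacterial lipopolysaccharide, with 162 to 186 CPM in immature and 34.0 to 59.2 CPM in mature libraries (-1.91), its co-receptor Cd14 (-1.74), the RNA sensor Tlr3 (-1.52), Tlr2 (-1.36) and the TNF receptor Tnfrsf1a (-1.28). Ltbr, the lymphotoxin beta receptor of the alternative arm, did not reach the fold criterion (-0.74, edgeR adjusted p = 0.000658). The macrophage markers fell with the receptors that fell, and their part was not tested.

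Of 25 adaptors and ubiquitin ligases, 6 were called higher and 18 were not called in either direction (median 0.032). Those higher were Traf1 (2.97), Birc2 (2.01), Malt1 (1.49), Traf2 (1.28), Birc3 (1.15) and Traf6 (1.14), adaptors, ligases and a paracaspase that carry receptor signals to the kinases. Traf2, Birc2 and Birc3 are known, with Traf3, to keep NIK low, and Traf3 was at 0.51 (edgeR adjusted p = 0.00983), under the fold criterion.

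Of 7 kinases, Map3k14 alone was called. It encodes NIK, the kinase that starts the alternative arm, and had 101, 99.8 and 101 CPM in the immature and 485, 454, 410 and 456 CPM in the mature libraries (log2 fold change 2.17, SE 0.085, adjusted p = 4.68e-07 by edgeR). The genes of the I-kappa B kinase complex, which starts the canonical arm, had log2 fold changes of -0.28 (Chuk, edgeR adjusted p = 0.113), 0.26 (Ikbkb, 0.110) and -0.19 (Ikbkg, 0.168), and the values of their libraries lay within 45.3 to 133 CPM. The rise of Map3k14 was thus of the size of those of Rel and Nfkb2.

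Of 18 other inhibitors and brakes, 3 were called higher and none lower (median 0.074). These were the A20-binding proteins Tnip3 (1.11) and Tnip1 (1.05), and Nfkbil1 (1.11), an I-kappa B-like gene, which without mature replicate 3 was at 0.93 and no longer past the fold criterion. Tnfaip3, which encodes A20, a deubiquitinase and feedback brake, had 147, 80.5 and 51.5 CPM in the immature and 193, 190, 172 and 163 CPM in the mature libraries (0.95, edgeR adjusted p = 0.0301), under the fold criterion. Nfkbid, another nuclear I-kappa B gene, was at 12.5 to 16.2 CPM in immature and 13.1 to 18.3 CPM in mature libraries (0.057, edgeR adjusted p = 0.779).

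Of 35 textbook targets of NF-kappa B, 14 were called higher, 5 lower and 16 neither (median 0.70). The list includes Cd80 and Cd86, which are no independent check if the sort used them. It also includes further markers of maturation, such as Ccr7 and Fscn1. All of these were called higher, and the part of the sort in the count was not tested. The largest rises were those of the chemokine Ccl5 (4.23), the actin bundler Fscn1 (4.12) and the chemokine receptor Ccr7 (3.62), which guides mature dendritic cells to lymph nodes. The largest falls were those of the chemokine Cxcl2 (-2.31), the protease Mmp9 (-1.92) and the chemokine Ccl3 (-1.88). So targets were called in both directions. Among all tested genes 13.2% were called higher and 9.95% lower. The 5 of 35 called lower were thus not far from the share of all genes, whereas the 14 of 35 called higher were above it.

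Of 8 listed targets of the alternative arm, 5 were tested, 2 were called higher and 3 neither. Both that were called, the chemokines Cxcl12 and Cxcl13, were at very low levels. So was Tnfsf11, not called, at 0 to 0.093 CPM in immature and 0.106 to 0.243 CPM in mature libraries. The groups overlapped for the other tested genes, Icosl and Tnfsf13b, which were not called either. Icosl was at 42.6 to 46.8 CPM in immature and 40.4 to 56.7 CPM in mature libraries. Tnfsf13b was at 9.93 to 13.6 and 8.36 to 9.98 CPM. Cxcl12 had 0, 7 and 0 counts in the immature libraries and 30, 270, 163 and 195 in the mature ones. Cxcl13 had no count in the immature libraries or in mature replicate 1 and 34, 21 and 20 counts in the other mature libraries, which is on average at least 6.09-fold higher than a floor taken as 3 counts per library (edgeR adjusted p = 0.0308, and 0.0691 to 0.0724 without 1 immature library, which no longer passed). With any 1 of the mature libraries that held its counts left out, Cxcl13 had no value in the fit. Of the mature libraries, Cxcl12 and Cxcl13 were both lowest in replicate 1, the mature library with the lowest cardiac markers. The part of cells with those markers was not tested.

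**Figure D4:**
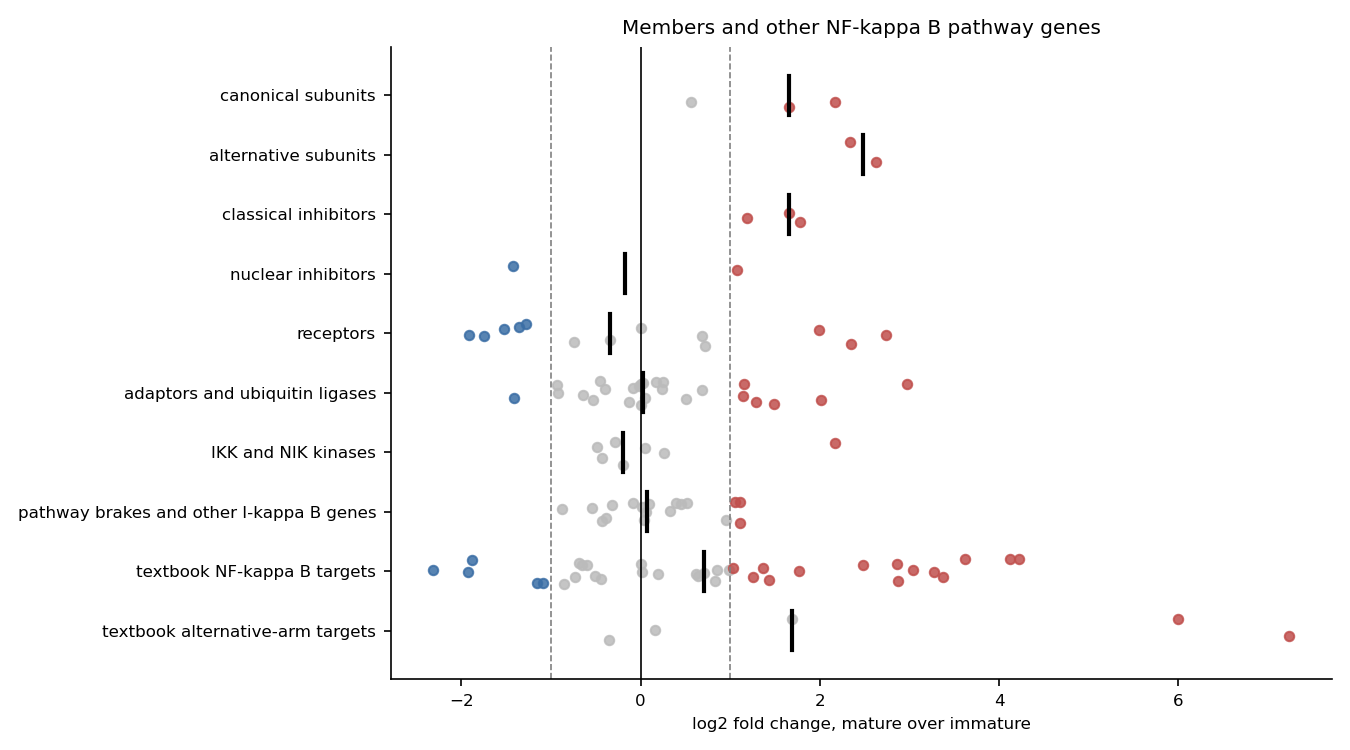
Log2 fold change of mature over immature cells (x axis) for every tested gene of the 4 member groups and the 6 lists of other pathway genes. Red and blue points were called higher and lower, grey points were not called, black bars are list medians and dashed lines mark the fold criterion. The subunits and classical inhibitors lie to the right of 0, whereas adaptors, kinases and brakes centre near it, with medians of 0.032, -0.19 and 0.074.

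Members also differed in how evenly they were expressed within a group. In the immature libraries the highest level of Nfkbiz was 3.88 times the lowest, and that of Nfkbia 1.78 times. Among 8975 genes with a mean of at least 10 CPM the median of this ratio was 1.11, and 99.8% of genes had a smaller ratio than Nfkbiz and 99.1% a smaller one than Nfkbia. The other 8 members lay between 1.07 and 1.27. For Nfkbiz and Nfkbia alike, immature replicate 1 was highest and replicate 3 lowest. Rel, Nfkbib and Nfkbie had the same order at smaller ratios.

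The same order of libraries was seen for 5 other pathway genes that were at least 2-fold higher in immature replicate 1 than in replicate 3. These were Cxcl1 (5.26-fold), Cxcl2 (3.40), Tnfaip3 (2.86), Tnf (2.22) and Cxcl10 (2.13), all known targets of NF-kappa B, and with Nfkbiz they made up the 6 of 109 member and pathway genes that reached 2-fold, where the median was 1.03. These 5 genes were singled out after their values were seen. In the mature libraries Nfkbiz was at 8.73 to 16.4 CPM, near or below the 15.1 CPM of immature replicate 3.

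**Figure D5:**
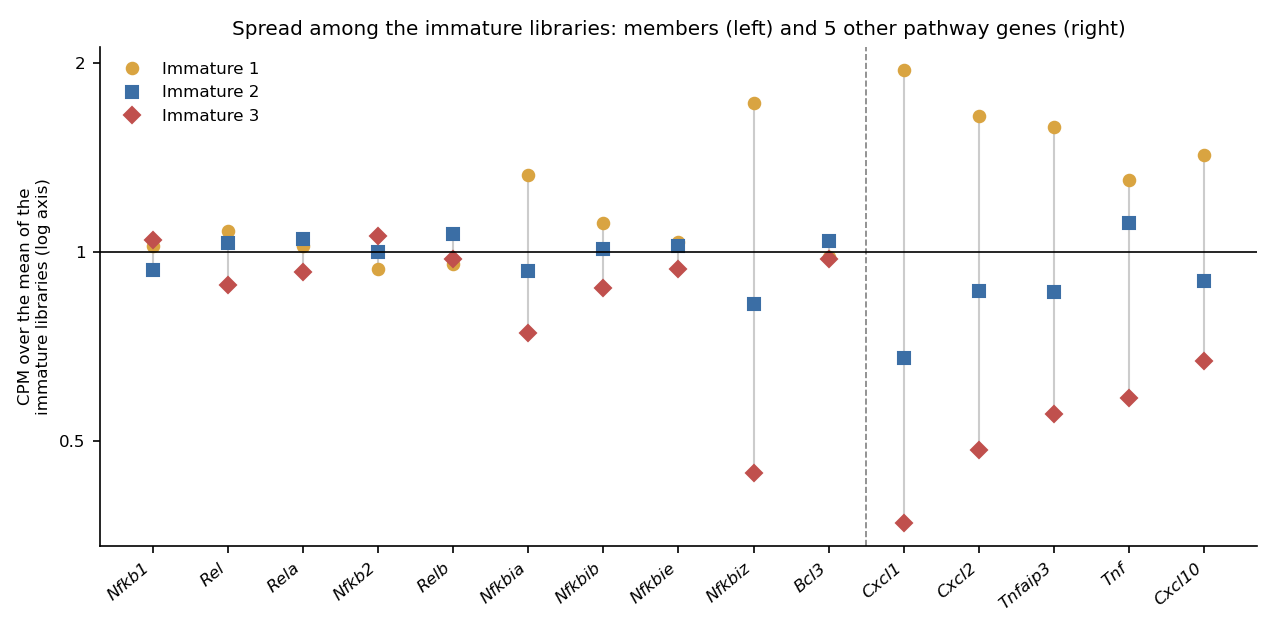
CPM of each immature library over the mean of the 3 (y axis, log scale) for the 10 members (left of the dashed line) and the 5 other pathway genes at least 2-fold higher in replicate 1 than in replicate 3 (right). Circles, squares and diamonds are immature replicates 1, 2 and 3. Nfkbiz spreads like the 5 genes on the right, with replicate 1 on top. Nfkbia has the same order but spreads less than those 5 genes, and the other members stay closer to 1.

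Among mature libraries, replicate 3 departed from the others by gene. Set against the average of the other mature libraries, its log2 ratio was -0.59 for Rel and -0.28 for Nfkb1, the members with the longest exon unions, and 0.66 for Nfkbia, 0.56 for Nfkbib, 0.52 for Nfkbiz, 0.47 for Relb, 0.28 for Rela and 0.20 for Bcl3. Nfkb2 (0.084) and Nfkbie (0.058) differed least. Over the 10 members this ratio had a Spearman rho of -0.66 with the exon union length, and over 13617 genes of -0.52, both given as descriptions over genes that share the libraries. Without mature replicate 3 the log2 fold changes stayed past the criteria for all members that had passed, and that of Nfkbia was 1.01.

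The genes whose pattern was most like that of the alternative subunits, by Pearson's r of log2 CPM with the mean z-score of Nfkb2 and Relb over the 7 libraries among 8965 genes, were Kcnh3 (r = 0.9998), Fam177a (0.9997), Fam177a2, Zfand6 and Crem. For Nfkb1, Rel and Rela they were Arc (0.9997), Enox2 (0.9993), Aoc1, Scmh1 and Ing1. With 2 well separated groups any gene that differs evenly between them reaches a high r, and Ing1 itself differed by a log2 fold change of 0.46 only. Fam177a and Fam177a2 are near-identical copies that can share reads.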

How the data were processed

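RNA-seq of sorted immature (n = 3) and mature (n = 4) BMDCs was grouped and numbered as in the sample titles. The table deposited by the authors gives raw counts of each gene and FPKM, in which these counts are divided by gene length and by a library total. The submitters' processing notes name cutadapt 1.9, HISAT2 2.2.1 and StringTie 2.1.6 and the build mm9, but 87.2% of shared gene IDs have the GRCm38 coordinates of GENCODE M21, so GRCm38 is taken as the build of the deposited coordinates. For Nfkb1 and Nfkbib the deposited ends differ from it. No strand setting of the counting is given in the sources used here.

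The test on counts was edgeR 4.0.16 under R 4.3.3 (low-count filter, TMM, quasi-likelihood test, Benjamini-Hochberg over 17461 genes), with the fold and adjusted p criteria of the study. The standard error is the log2 fold change divided by the square root of F. Alternatives used limma 3.58.1 on log2(FPKM + 1) and log2(FPKM + 0.1) where at least 3 libraries reached an FPKM of 1, DESeq2 1.42.0, other scaling factors, no filter, no fold criterion, the replicate number as a block and each library left out. Mature replicates 1 and 3 both left out and the coding transcript length were added after seeing the data. The tests were tested on simulated counts. The members and lists were chosen with earlier results of these data known. Named are all members, the up to 3 largest rises and falls called in each list, and the 5 genes most like each arm, with Cd80, Cd86 and Itgax. Other genes were named after their values were seen. A named gene of the adaptor list and a marker gene are not reported here. Ccl19, Elane and Ncr1 were listed but not in the table. Tables and figures were made in Python 3.11.15 (pandas 2.3.3, numpy 2.4.6; scipy 1.17.1, matplotlib 3.10.9).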

Additional observations from a re-analysis of the deposited data

Results flagged for a closer look

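Among the 4 mature libraries, 46 values were read for a library far from the rest by Dixon's criterion, in which the distance of the extreme library from its neighbour is taken as a part of the whole range and set against the 95% critical value for 4 samples. There were 14 such values, where chance gives about 2.3, and many of them share counts. In 13 of the 14 it was mature replicate 3 that lay apart. The distance over the range was 0.890 for the CPM of Nfkb1, where replicate 3 was low. It was 0.846 for Relb, 0.884 for Nfkbia and 0.913 for Nfkbib, where replicate 3 was high. Among pathway genes it was 0.895 for Ccl5, 0.880 for Ccr7, 0.928 for Cd40 and 0.975 for Nfkbil1, with replicate 3 high, and 0.912 for Malt1, with replicate 3 low. It was 0.859 for the log2 ratio of Rel to Rela, with replicate 3 low, and 0.861 for the FPKM share of Rela, 0.902 for that of Relb and 0.882 for the ratio of inhibitors to subunits, with replicate 3 high. For Tnip1 it was 0.928 and mature replicate 2 was apart, with 190 CPM against 205 to 206 CPM in the others.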

How the results depend on the processing

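No member changed direction in any alternative. The calls of the 8 members that rose held in all 15 fits that gave a value for each, with the log2 fold change of Nfkbia between 1.01 and 1.43 and of Bcl3 between 1.02 and 1.19. Upper-quartile scaling moved the median log2 fold change of all genes from 0.055 to 0.165. Nfkbiz also lost its call with limma on log2(FPKM + 1) (-0.90, adjusted p = 0.0540) and log2(FPKM + 0.1) (-1.11, 0.0517). The number of members called was 8 to 10 over 16 alternatives and 8 to 9 with 1 library left out. All genes called were 1768 and 2561 with limma at pseudocounts of 1 and 0.1, 8053 without the fold criterion, and 3646 to 4052 with 1 library left out.

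With counts in place of FPKM, differences in share (percentage points, mature minus immature) were -5.51 for Nfkb1, -10.6 for Rela, 6.95 for Nfkb2, 5.11 for Relb and 12.1 for Nfkb2 with Relb, and that of the ratio of inhibitors to subunits was -0.139. Per kilobase of coding transcript they were -4.38 for Nfkb1, -14.7 for Rela and 7.47 for Nfkb2. In FPKM they were -2.12, -19.4, 9.66, 8.01, 17.7 and -0.455.

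Same-numbered libraries did not deviate together (correlations of 0.029, -0.0011 and 0.014), so the replicate numbers were not taken as pairs. With the replicate number as a block, 3616 genes and 8 members were called, and Nfkbiz was at -1.07 (adjusted p = 0.0993). With 3 against 4 libraries, the exact permutation tests of the 6 ratios could not go below 0.0571.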
